A study of Mus musculus with 89 samples.

Results

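Club cells are the non-ciliated secretory cells of the mouse airway lining, and secretoglobins are the small proteins that dominate what they release into the airway fluid. Club cells also carry enzymes that modify inhaled chemicals, act as progenitors for ciliated and mucous cells, and are known to be injured by inhaled oxidants. After allergen challenge some of them are known to turn into mucus-producing goblet cells. The 6 genes described are Scgb1a1, Scgb3a1, Scgb3a2, Bpifa1, Gabrp and Tspan1, chosen by name with earlier results of these data known. They come from 17097 genes with a probe set, each read by whichever of its probe sets had the highest average level. All 6 were among the 15065 genes tested. Scgb1a1 encodes club cell secretory protein, Scgb3a1 a secretoglobin of the larger airways and Scgb3a2 a secretoglobin of club cells. Bpifa1 encodes a secreted antimicrobial and surface-active protein of the airway lining. Gabrp encodes the pi subunit of the GABA-A receptor and Tspan1 a tetraspanin, so this pair are membrane proteins and not secreted products.

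RNA of the perfused left lung lobe of male mice aged 7 to 8 weeks was hybridized to 89 arrays, in 18 groups of 2 to 6 arrays. The mice were SP-D-/- animals, which lack surfactant protein D (gene Sftpd), or wild-type BALB/c or C57BL/6 animals, and the labels do not give the background strain of the SP-D-/- line. Af stands for the fungal allergen Aspergillus fumigatus, given by intraperitoneal injection on days 0 and 7 and instilled into the nose on day 13. Ozone (3 ppm) or air was breathed for 2 hours and the lungs were taken 12 hours later. The 6 exposures were Af with lungs taken 24 h later and air (6 SP-D-/-, 5 BALB/c and 4 C57BL/6 arrays), Af 96 h with ozone (6, 6 and 5 arrays in the same strain order), Af 168 h with ozone (4, 4 and 6), Af 168 h with air (5, 6 and 4), ozone with no Af (4, 2 and 6) and air with no Af (5, 5 and 6). The design text speaks of cell suspensions and the extraction protocol of a frozen lobe, and nothing beyond the replicate numbers says that arrays are separate animals, so p-values measure the spread between these arrays. In such whole-lung RNA, fewer cells of a type and less RNA per cell cannot be told apart.

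Before the results, 5 arrays stood against their labels. Sftpd lay between 4.42 and 7.76 on the other SP-D-/- arrays, between 9.61 and 11.24 on the other BALB/c arrays and between 9.20 and 11.15 on the other C57BL/6 arrays. It was 10.94 on SP-D-/- Af 96 h with ozone replicate 1, 8.79 and 7.68 on BALB/c Af 24 h replicates 4 and 5, and 5.59 on BALB/c Af 168 h with ozone replicate 6. A strain index over 40 genes (about -1 in C57BL/6 air and 1 in BALB/c air) was 0.71 on C57BL/6 Af 96 h with ozone replicate 1, and it was 0.02 on C57BL/6 Af 168 h with ozone replicate 5, which was not counted among the 5. With every array as labelled, the SP-D-/- minus C57BL/6 difference of Sftpd ran from -4.64 to -2.90 over the 6 exposures (limma, adjusted p from 2.67e-08 to 0.000554). The mean signal of 9 spiked-in hybridization controls ran from 9.93 to 12.40 over the arrays. The log2 difference between the 3' and 5' beta-actin probe sets, a measure of RNA length, averaged 2.54 to 2.84 in the 3 Af 24 h groups and 1.59 to 1.88 in the 3 air groups. Levels and changes below are log2 signals of the authors' normalized scale, and a change counts as called at an adjusted p under 0.05 in limma.

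Scgb3a1 and Bpifa1 were the pair that moved together most closely from array to array, with r = 0.91 over 89 arrays after the 18 group means were taken out, so the stretches around their gene starts are shown. Scgb3a1 lies on chromosome 11 (49663595 to 49665118) and Bpifa1 on chromosome 2 (154142880 to 154149217), so they are not neighbours. The windows run from 250 bases before to 50 after the RefSeq gene start of GRCm38.p6, at chr11:49663345-49663644 and chr2:154142630-154142929, both on the plus strand. Capitals mark matches, on either strand, to CTTGAG (NKX2-1, a lung epithelial regulator), TNTTTNC (forkhead factors such as FOXA1 and FOXA2), AGGAAG (ETS factors such as ELF3) and TTNNGNAA (C/EBP factors).
Scgb3a1: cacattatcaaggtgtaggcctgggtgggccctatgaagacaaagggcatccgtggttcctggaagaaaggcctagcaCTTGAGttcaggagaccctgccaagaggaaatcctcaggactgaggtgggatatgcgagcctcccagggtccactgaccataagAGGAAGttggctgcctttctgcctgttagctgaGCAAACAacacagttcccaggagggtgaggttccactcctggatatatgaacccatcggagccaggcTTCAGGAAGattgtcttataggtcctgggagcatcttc
Bpifa1: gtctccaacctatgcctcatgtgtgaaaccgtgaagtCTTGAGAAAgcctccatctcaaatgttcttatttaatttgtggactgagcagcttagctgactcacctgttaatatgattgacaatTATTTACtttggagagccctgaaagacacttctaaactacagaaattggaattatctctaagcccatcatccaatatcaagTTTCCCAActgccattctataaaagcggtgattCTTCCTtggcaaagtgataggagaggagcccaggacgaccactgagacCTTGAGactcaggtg
Scgb3a1 held CTTGAG at -172, TNTTTNC at -55, AGGAAG at -88 and 16, and TTNNGNAA at 13, which overlaps the second AGGAAG by 5 bases. Bpifa1 held CTTGAG at -213 and 36, TNTTTNC at -127, AGGAAG at -13 and TTNNGNAA at -212 and -46, the first of these overlapping a CTTGAG by 5 bases. Of 32851 mouse windows of the same length, CTTGAG was found in 15.9%, TNTTTNC in 52.7%, AGGAAG in 35.4% and TTNNGNAA in 40.7%. Both windows thus hold all 4 letter strings, and a match is a description of the letters only. Of the other members, Tspan1 (chromosome 4) held only TNTTTNC at -89, and Gabrp (chromosome 11) held none of the 4 in its window. RefSeq windows were at hand for 4 of the 6 genes, and Scgb1a1 and Scgb3a2 are named only.

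The genes differed widely in how much they varied between arrays of one group. Bpifa1 had a within-group SD of 1.76 on the log2 scale, at percentile 99.9 of all tested genes, whose median was 0.54. Scgb3a1 had a within-group SD of 0.99 (percentile 95.2) and Scgb3a2 of 0.85 (percentile 88.6). Scgb1a1 had 0.35, at percentile 12.0. Scgb1a1 sat at the top of the scale: it was among the 10 highest of 45141 probe sets on 77 of 89 arrays, took 18 distinct values, and reached the highest value of the data, 13.54. Every array carries the same quartiles and maximum, so the level of a gene at the very top follows its rank, and a rise of Scgb1a1 had little room to appear. Its changes are therefore given on this scale only, with no fold, and may not match the change in RNA. Its lowest level, 9.82 on BALB/c Af 24 h replicate 5 (one of the arrays against its label), was rank 973. That array, with a strain index of 0.56, also had the group's lowest mean of alveolar type 2 markers (8.15, others 9.84 to 11.35). The same held for endothelial markers (5.86, others 6.93 to 8.59), and its beta-actin difference was 0.87 (others 2.13 to 3.66). Its fibroblast mean of 7.48 was the group's highest. Whether its low Sftpd and Scgb1a1 reflect its label or the whole array was not tested.

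**Figure D1:**
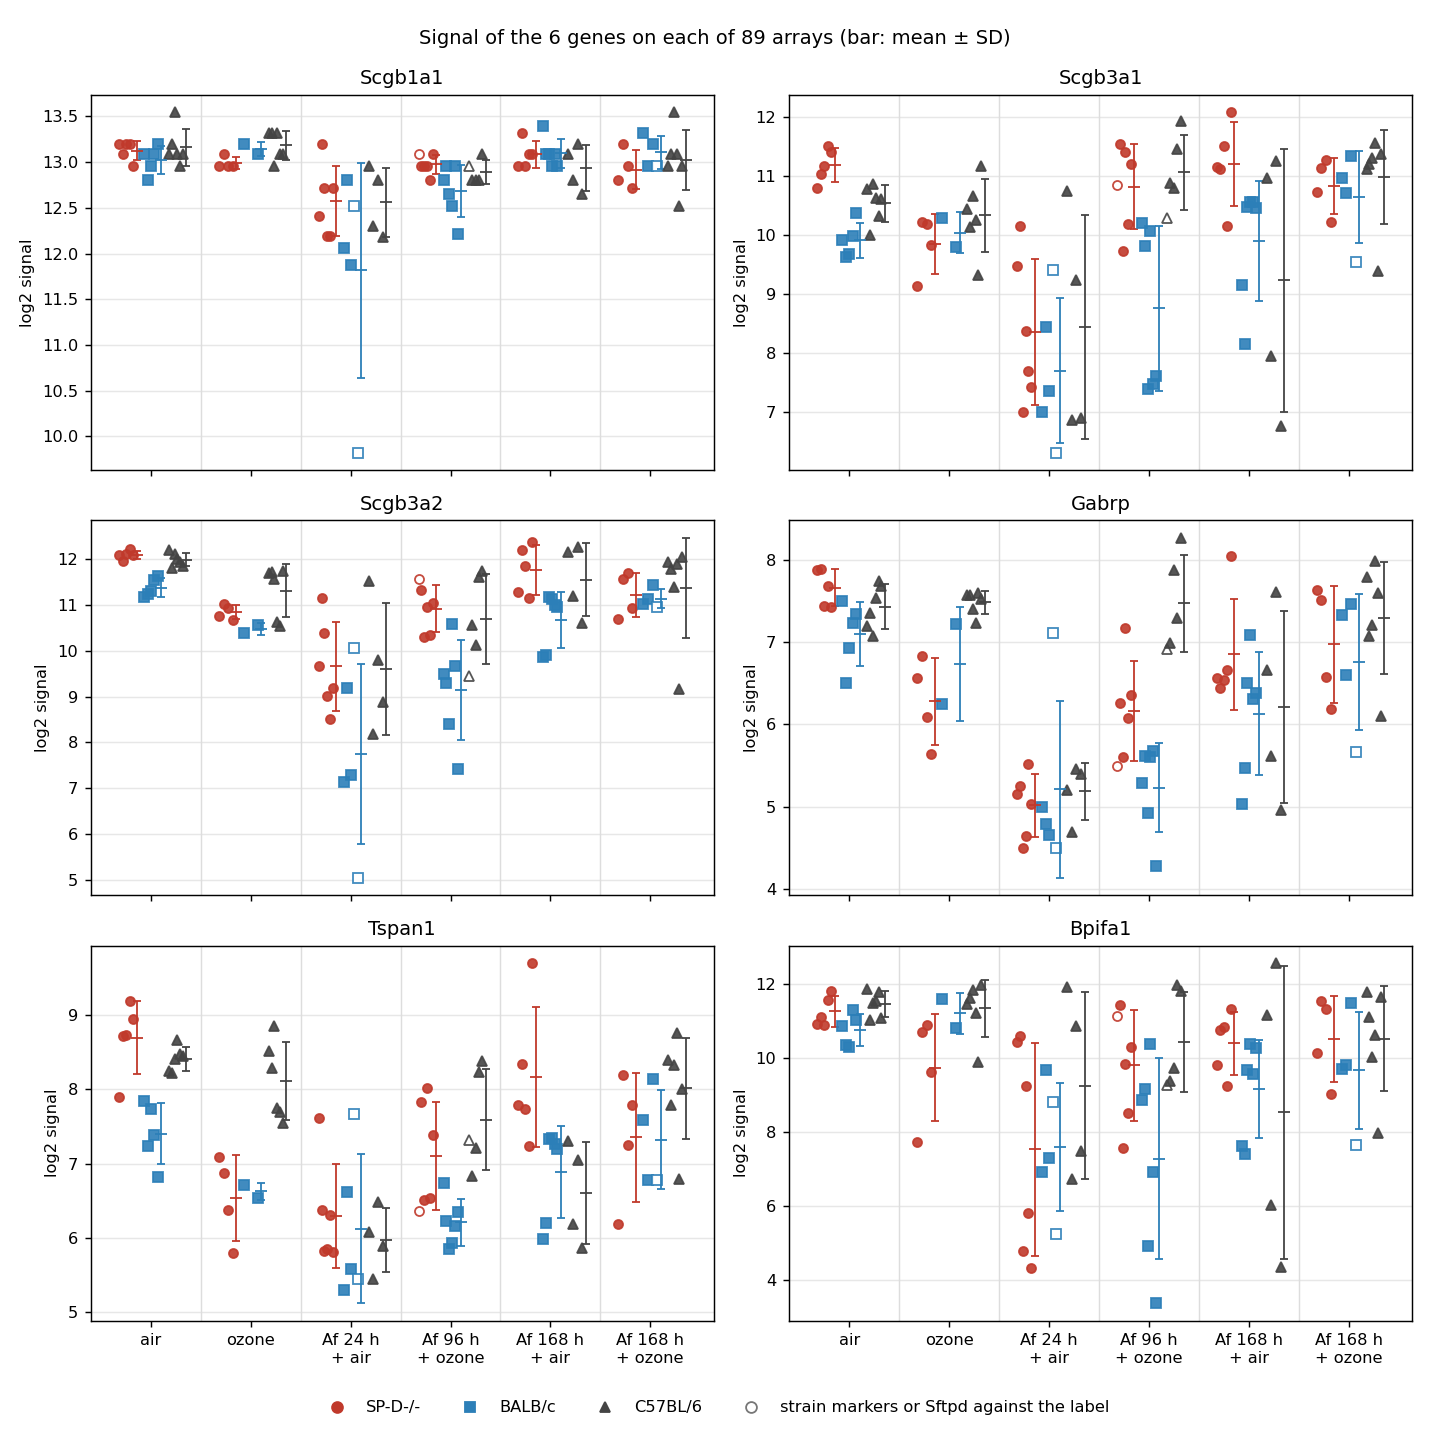
Log2 signal (vertical axis) of each of the 6 genes on 89 arrays by exposure (horizontal axis) and strain, with the mean and SD beside the points; open symbols are the 5 arrays whose strain genes or Sftpd went against the label. The Af 24 h arrays hold most of the low values, Scgb1a1 spans the least, and Bpifa1 spans from 3.37 to 12.59.

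Differences between the 18 groups took up 42.5% of the variance of Bpifa1, 51.3% of Scgb1a1, 59.0% of Scgb3a1, 67.6% of Scgb3a2, 68.0% of Tspan1 and 71.8% of Gabrp. The lowest group mean was BALB/c Af 24 h for the 3 secretoglobins (11.81 ± 1.18 for Scgb1a1, 7.70 ± 1.23 for Scgb3a1 and 7.74 ± 1.96 for Scgb3a2, SD, n = 5). It was SP-D-/- Af 24 h for Gabrp (5.02 ± 0.38, n = 6), C57BL/6 Af 24 h for Tspan1 (5.97 ± 0.43, n = 4) and BALB/c Af 96 h with ozone for Bpifa1 (7.28 ± 2.72, n = 6). The highest group mean was an air or ozone group with no Af for 5 genes: C57BL/6 ozone for Scgb1a1 (13.18 ± 0.16, n = 6), SP-D-/- air for Scgb3a2 (12.09 ± 0.09), Gabrp (7.66 ± 0.22) and Tspan1 (8.70 ± 0.49, n = 5), and C57BL/6 air for Bpifa1 (11.47 ± 0.35, n = 6). For Scgb3a1 it was SP-D-/- Af 168 h with air (11.20 ± 0.71, n = 5), with SP-D-/- air next (11.18 ± 0.29, n = 5). In the full order of the 18 groups, 0 of the 17 neighbouring pairs had separate ranges for any of the 6 genes.

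One day after allergen challenge, most of these genes were far lower than in air in every strain. Averaged over the 3 strains, 6 of 6 were lower at Af 24 h than in air, against 23.5% of all tested genes. The genes and lists were chosen with earlier results of these data known, so such counts beside the share of all tested genes are a description only. Scgb3a2 fell by 2.82 ± 0.30 (SE, 7.04-fold, adjusted p = 1.73e-11), Scgb3a1 by 2.38 ± 0.35 (5.22-fold, 1.44e-07) and Scgb1a1 by 0.79 ± 0.13 (2.16e-06). Bpifa1 fell by 3.04 ± 0.62 (8.21-fold, 6.80e-05), Gabrp by 2.26 ± 0.22 (4.78-fold, 9.63e-13) and Tspan1 by 2.04 ± 0.23 (4.11-fold, 7.67e-11). The median change was -2.32 for the 6 genes and 0.00 for all tested genes, and all 6 calls held without any 1 array, without the 5 arrays against their labels and under each other setting tried.

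In SP-D-/- lungs, 5 of 6 were lower at Af 24 h than in air, against 3.11% of all tested genes, with Scgb1a1 not called. Scgb3a1 was 6.99 at its lowest, 8.02 at the median and 10.15 at its highest on the Af 24 h arrays, against 10.79, 11.03, 11.17, 11.51 and 11.40 in air. No Af 24 h array reached the air arrays, and the fall was 2.83 ± 0.59 (7.12-fold, adjusted p = 0.00123). Scgb3a2 was 8.52, 9.42 and 11.15 (lowest, median, highest) at Af 24 h, against 12.08, 11.96, 12.10, 12.21 and 12.08 in air. The air arrays lay within a narrow band above all others, and the fall was 2.43 ± 0.50 (5.40-fold, adjusted p = 0.00123). Gabrp was 4.49, 5.10 and 5.52 at Af 24 h, against 7.87, 7.88, 7.43, 7.68 and 7.43 in air. It was low on all 6 arrays, close to the level under which a gene was filtered out (4.45), and fell by 2.64 ± 0.37 (6.24-fold, adjusted p = 2.92e-06). Tspan1 fell by 2.40 ± 0.38 (5.29-fold, adjusted p = 2.84e-05). Bpifa1 was 10.44, 10.61, 4.80, 9.25, 5.82 and 4.34 on the 6 Af 24 h arrays, against 10.91, 11.12, 10.90, 11.58 and 11.83 in air. The Af 24 h arrays split into 3 at 9.25 or above and 3 at 5.82 or below, all under the air arrays. Its fall of 3.73 ± 1.03 (13.3-fold, adjusted p = 0.0195) was not called without Af 24 h replicates 3, 5 or 6 or air replicate 6, with an adjusted p of at most 0.0921, nor with the beta-actin difference as a covariate (0.0504) or with only these 2 groups fitted (0.0578). Scgb1a1 was 12.20, 12.56 and 13.20 (lowest, median, highest) at Af 24 h, against 13.20, 13.09, 13.20, 13.20 and 12.96 in air, a change of -0.55 ± 0.22 (adjusted p = 0.147). That change was called (adjusted p = 0.0212) in the fit without the 5 arrays against their labels, none of which lies in these SP-D-/- groups.

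In BALB/c lungs, 6 of 6 were lower at Af 24 h than in air, against 8.13% of all tested genes. Replicates 4 and 5 of this group are arrays against their labels, so each change except that of Tspan1 is given with and without them. Scgb3a2 was 7.13, 9.19, 7.29, 10.07 and 5.04 at Af 24 h (replicates 1 to 5), against 11.17, 11.24, 11.29, 11.55 and 11.62 in air. The groups did not overlap, and the fall was 3.63 ± 0.53 (12.4-fold, adjusted p = 2.21e-06), or 3.50 without the doubted arrays. Scgb3a1 was 6.99, 8.44, 7.35, 9.40 and 6.30 at Af 24 h, against 9.91, 9.62, 9.67, 9.99 and 10.36 in air. Here too each Af 24 h array was lower, and the fall was 2.21 ± 0.61 (4.64-fold, adjusted p = 0.0110), or 2.32 without the doubted arrays. Gabrp fell by 1.89 ± 0.39 (adjusted p = 0.000569) or by 2.29 without those arrays, of which replicate 4 carried 7.11, inside the air range of 6.51 to 7.50. Scgb1a1 was 12.06, 12.80, 11.87, 12.52 and 9.82 at Af 24 h, against 13.09, 12.80, 12.96, 13.09 and 13.20 in air. Its fall of 1.21 ± 0.23 (adjusted p = 0.000222) was smaller without replicate 5, at 0.71 (adjusted p = 0.00436), and without both doubted arrays, at 0.78 (adjusted p = 0.00806). With only these 2 groups fitted it was not called (adjusted p = 0.160). Tspan1 fell by 1.28 ± 0.40 (adjusted p = 0.0246), and the call was lost without Af 24 h replicate 1, 3 or 5 or air replicate 1 or 3 (adjusted p at most 0.0702). It was also lost with cyclic loess (adjusted p = 0.0887), the mean of both probe sets (0.0513), the beta-actin covariate (0.0934) and only these 2 groups fitted (0.115). The Tspan1 call held without the doubted arrays, of which replicate 4 carried 7.66, inside the air range of 6.81 to 7.84. Bpifa1 was 6.92, 9.69, 7.31, 8.82 and 5.26 at Af 24 h, against 10.87, 10.36, 10.31, 11.30 and 11.03 in air. Its fall of 3.17 ± 1.08 (9.02-fold, adjusted p = 0.0405) kept its call without Af 24 h replicate 2 but lost it without any 1 of the other 9 arrays (adjusted p up to 0.119), and was 2.80 (adjusted p = 0.206) without the doubted arrays. Cyclic loess and the beta-actin covariate ended that call as well.

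In C57BL/6 lungs, 4 of 6 were lower at Af 24 h than in air, against 9.78% of all tested genes, with Scgb1a1 and Bpifa1 not called. Scgb3a2 was 11.51, 8.19, 9.79 and 8.88 at Af 24 h, against 11.81, 11.96 and 12.18 (lowest, median, highest) in air. All 4 arrays were lower and the fall was 2.38 ± 0.54 (5.22-fold, adjusted p = 0.00168). Gabrp was 5.21, 4.69, 5.46 and 5.40 at Af 24 h, against 7.08, 7.44 and 7.74 in air. Tspan1 was 6.08, 5.45, 6.48 and 5.89 at Af 24 h, against 8.22, 8.43 and 8.66 in air. Both membrane protein genes were low on all 4 arrays, by 2.24 ± 0.40 (4.73-fold, adjusted p = 8.91e-05) for Gabrp and 2.44 ± 0.41 (5.41-fold, adjusted p = 4.15e-05) for Tspan1. Scgb3a1 was 10.74, 6.87, 9.24 and 6.89 at Af 24 h, against 10.01, 10.63 and 10.86 in air. Replicate 1 (10.74) lay inside the air range and replicates 3 and 6 far under it, and the fall of 2.10 ± 0.63 (adjusted p = 0.0164) was not called without replicate 3 (a fall of 1.58, adjusted p = 0.0686) or replicate 6 (1.59, adjusted p = 0.0846), with the beta-actin covariate (1.99, adjusted p = 0.112) or with only these 2 groups fitted (adjusted p = 0.0584). Bpifa1 followed the same arrays, with 11.92, 6.73, 10.88 and 7.51 at Af 24 h, against 11.02, 11.52 and 11.86 in air (change -2.21 ± 1.10, adjusted p = 0.146). Scgb1a1 changed by -0.60 ± 0.24 (adjusted p = 0.0668), and it was called in 4 of 9 other settings, those with cyclic loess, with the beta-actin covariate and without the doubted arrays (adjusted p down to 0.00976).

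The second probe set of Gabrp fell by 2.38 ± 0.31 in SP-D-/-, 1.92 ± 0.32 in BALB/c and 2.82 ± 0.33 in C57BL/6 lungs at Af 24 h against air. That of Tspan1, a dim one with a mean of 5.17 over the 89 arrays, changed by -0.94 ± 0.38, -0.60 ± 0.40 and -0.61 ± 0.41 in the same strains, none of them called. In the mean of the 3 strains the second Tspan1 probe set was lower by 0.71 ± 0.23 (adjusted p = 0.00980), in the direction of the first probe set and smaller in size.

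**Figure D2:**
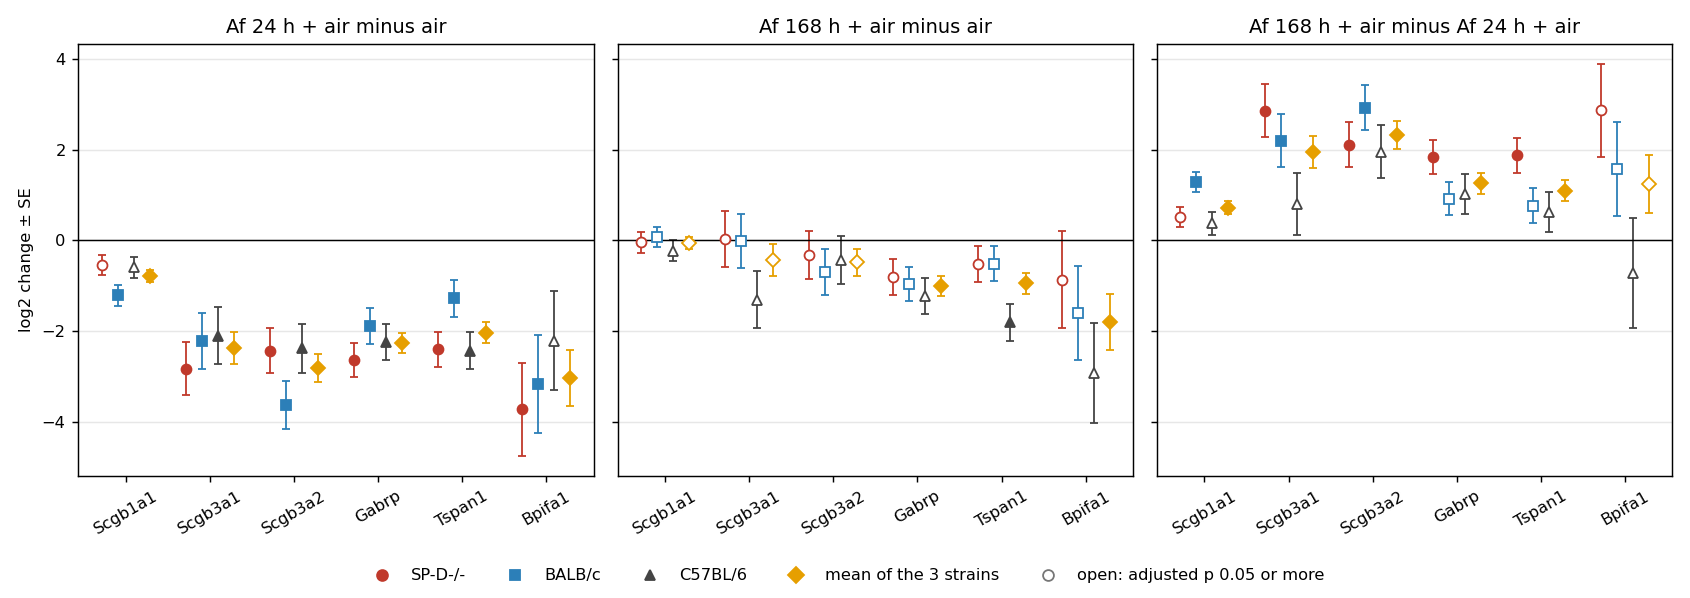
Log2 change ± SE (vertical axis) of the 6 genes (horizontal axis) in SP-D-/-, BALB/c and C57BL/6 lungs and in their mean, for Af 24 h minus air, Af 168 h minus air and Af 168 h minus Af 24 h; filled symbols are called. At Af 24 h all points lie below 0, and from Af 24 h to Af 168 h all but the C57BL/6 point of Bpifa1 lie above 0.

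Other airway genes fell beside them. Of 12 club cell enzymes tested, 11 were lower at Af 24 h than in air in the mean of the 3 strains (median change -1.69), among them the paraoxonase Pon1 (-3.45 ± 0.33, adjusted p = 5.59e-13) and the cytochromes P450 Cyp2a5 (-2.87 ± 0.38, 9.70e-09) and Cyp2f2 (-2.82 ± 0.33, 1.69e-10). Of 16 other secretory products, 8 were lower and 1 higher (median -0.65); the falls included the antimicrobial lectin Reg3g (-2.06 ± 0.51), haptoglobin Hp (-1.87 ± 0.19) and the matrix protein Chad (-1.83 ± 0.28). Of 14 airway membrane proteins, 7 were lower and 3 higher (median -0.38). The anion exchanger Slc26a4, also a goblet marker, rose by 3.83 ± 0.34 (adjusted p = 1.47e-14), while the claudins Cldn10 (-2.25 ± 0.28) and Cldn3 (-2.03 ± 0.30) fell. Of 14 airway epithelial transcription factors, 6 were lower and 3 higher (median -0.12), with Foxa1 (-2.12 ± 0.32), Sox2 (-1.55 ± 0.30) and Ehf (-1.49 ± 0.29) the largest falls.

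Markers of other cell types also moved at Af 24 h. All 9 ciliated markers tested were lower in the mean of the 3 strains (median -1.31), among them the ciliary genes Lrrc23 (-2.27 ± 0.22) and Ccdc113 (-2.19 ± 0.31) and the ciliary master regulator Foxj1 (-1.55 ± 0.26). The mean level of the ciliated list was 5.12 to 5.92 at Af 24 h against 6.79 to 7.46 in air on SP-D-/- arrays, 4.67 to 5.41 against 5.88 to 6.61 on BALB/c arrays, and 5.18 to 5.57 against 6.50 to 6.84 on C57BL/6 arrays. These means take in Dnah5, the 10th marker of the list, which was filtered out of the tests. In each strain 3 of the 10 had a mean under the filter level at Af 24 h, against 1 in air. Of the alveolar type 2 markers 3 of 5 were lower (median -0.84), of the endothelial markers 4 of 6 (median -0.86), of the fibroblast markers 4 of 6 with 1 higher (median -0.87), and of the general epithelial markers 2 of 6 with 1 higher (median -0.23). Leukocyte markers had 1 higher and 1 lower of 8 (median -0.18) and basal markers 2 higher of 5 (median 0.62). The basal mean at Af 24 h was highest on SP-D-/- replicate 1 (8.23) and BALB/c replicate 1 (7.63). Their means of skeletal muscle markers were 8.85 and 9.02. C57BL/6 replicate 6, with a muscle mean of 8.76, had a basal mean of 5.47. The part of these markers, and of the beta-actin difference given above, in the fall of the 6 genes was not tested; with the beta-actin difference as a covariate all 6 calls in the mean of the 3 strains held.

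**Figure D3:**
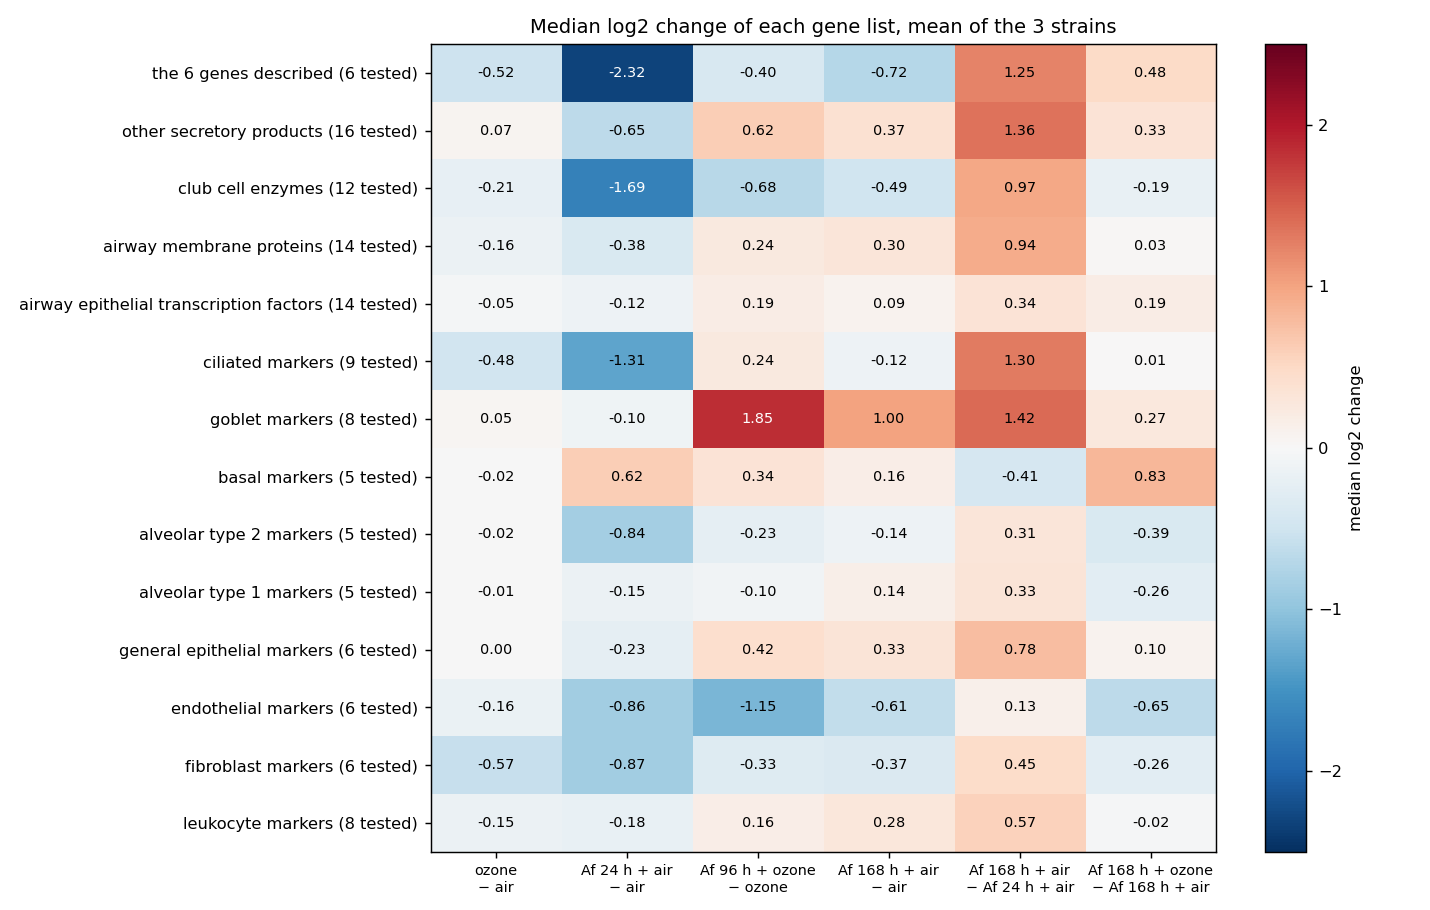
Median log2 change (colour and number) of each gene list (rows, with the number of genes tested) in 6 comparisons (columns), each the mean of the 3 strains. The 6 genes have the lowest median of the lists at Af 24 h minus air (-2.32), and the goblet markers the highest at Af 96 h with ozone minus ozone (1.85).

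A week after challenge the levels were closer to air. In the mean of the 3 strains, 5 of 6 genes were higher at Af 168 h than at Af 24 h, both with air, against 5.43% of all tested genes; these comparisons share the Af 24 h arrays with those above. Scgb3a2 rose by 2.33 ± 0.31 (5.02-fold, adjusted p = 7.88e-08), Scgb3a1 by 1.95 ± 0.36 (3.86-fold, 8.80e-05) and Scgb1a1 by 0.72 ± 0.13 (0.000111). Gabrp rose by 1.26 ± 0.23 (adjusted p = 6.62e-05) and Tspan1 by 1.09 ± 0.23 (0.000903), while Bpifa1 changed by 1.24 ± 0.63 (0.238). These 5 calls held without any 1 array and under every other setting tried. Their second probe sets rose too, by 1.73 ± 0.19 for Gabrp and 0.93 ± 0.24 for Tspan1 (adjusted p = 0.00659).

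Among the strains, 4 genes were called higher at Af 168 h than at Af 24 h in SP-D-/- lungs (1.19% of all tested genes), 3 in BALB/c (2.75%, with 1.61% lower) and 0 in C57BL/6 (0.133%), where 2 had an unadjusted p under 0.05. The second Gabrp probe set was called higher in SP-D-/- (1.64 ± 0.31, adjusted p = 0.000377), BALB/c (1.59 ± 0.31, 0.000580) and C57BL/6 lungs (1.94 ± 0.36, 0.00392). The first Gabrp probe set was not called in BALB/c (0.92, adjusted p = 0.145) or C57BL/6 (1.02, 0.230). In SP-D-/- lungs Scgb3a1 was 11.16, 11.12, 11.52, 10.14 and 12.08 at Af 168 h, against 6.99, 8.02 and 10.15 (lowest, median, highest) at Af 24 h. The rise was 2.86 ± 0.59 (adjusted p = 0.00150), and the groups overlapped only by the lowest Af 168 h array. Gabrp rose by 1.83 ± 0.37 (adjusted p = 0.00132) and Tspan1 by 1.87 ± 0.38 (0.00141). The Tspan1 call was lost with only these 2 groups fitted (adjusted p = 0.0918). Scgb3a2 rose by 2.11 ± 0.50 (0.00968), a call lost without Af 168 h replicate 6 (1.96, adjusted p = 0.0544) or Af 24 h replicate 5 (1.88, adjusted p = 0.0545). In BALB/c lungs Scgb3a2 was 9.86, 9.89, 11.17, 11.13, 10.99 and 10.96 at Af 168 h, against 7.13, 9.19, 7.29, 10.07 and 5.04 at Af 24 h. The rise of 2.92 ± 0.50 (adjusted p = 0.000123) was 2.80 (adjusted p = 0.00120) without the doubted arrays. Scgb1a1 rose by 1.28 ± 0.22 (adjusted p = 0.000123), or by 0.85 (adjusted p = 0.00813) without the doubted arrays, of which replicate 5 alone moved it to 0.78. Scgb3a1 rose by 2.20 ± 0.59 (adjusted p = 0.0191), a call lost without the doubted arrays (2.30, adjusted p = 0.0835), without Af 24 h replicate 5 (1.85, adjusted p = 0.0864) and without Af 168 h replicate 5 (2.06, adjusted p = 0.0511). None of the BALB/c rises of the 3 secretoglobins was called with only these 2 groups fitted (adjusted p from 0.134 to 0.254).

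Set against air, the Af 168 h arrays with air had 3 of the 6 genes called lower in the mean of the 3 strains, against 7.15% of all tested genes. Gabrp was lower by 1.00 ± 0.22 (2.00-fold, adjusted p = 0.000894), Tspan1 by 0.95 ± 0.23 (1.93-fold, 0.00214) and Bpifa1 by 1.80 ± 0.62 (3.48-fold, 0.0384). None of these 3 was called with the beta-actin difference as a covariate, that of Tspan1 was not called as the mean of its probe sets, and that of Bpifa1 was lost in 9 of 31 fits that left out an array (adjusted p up to 0.153). Its 9 arrays were Af 168 h replicates 2 and 5 of SP-D-/-, 1 and 2 of BALB/c and 3 and 6 of C57BL/6, and air replicates 5 and 6 of SP-D-/- and 4 of BALB/c. The secretoglobins were not called, with changes of -0.07 for Scgb1a1 (95% interval -0.33 to 0.20), -0.43 for Scgb3a1 (-1.13 to 0.27) and -0.49 for Scgb3a2 (-1.09 to 0.11). That of Scgb3a2 was called with only the compared groups fitted (adjusted p = 0.0214). The second Gabrp probe set was lower by 0.65 ± 0.18 (adjusted p = 0.0105) and that of Tspan1 changed by 0.21 ± 0.23.

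By strain, 0 genes were called at Af 168 h against air in SP-D-/- lungs (0.597% of all tested genes lower) and 0 in BALB/c (0.750%), with 1 of 6 at an unadjusted p under 0.05 in each, and 1 in C57BL/6 (0.266%). That one was Tspan1, with 7.30, 6.19, 7.04 and 5.86 in C57BL/6 at Af 168 h, against 8.22, 8.43 and 8.66 (lowest, median, highest) in air. All 4 arrays were lower, by 1.81 ± 0.41 on average (3.50-fold, adjusted p = 0.00683). The call was lost without Af 168 h replicate 6 (a fall of 1.56, adjusted p = 0.104), with the mean of both probe sets (0.79, adjusted p = 0.328) and with the beta-actin covariate (1.71, adjusted p = 0.0529).

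The C57BL/6 Af 168 h arrays fell apart from each other. Bpifa1 was 11.18, 6.02, 12.59 and 4.37 on replicates 2, 3, 4 and 6, against 11.02, 11.52 and 11.86 (lowest, median, highest) in air. Scgb3a1 was 10.96, 7.95, 11.25 and 6.75 on the same arrays, against 10.01, 10.63 and 10.86 in air. Replicates 2 and 4 were thus within or above the air range for both genes, and replicates 3 and 6 were far below it. The mean of the ciliated markers on these arrays was 6.71, 6.25, 7.64 and 5.72, and that of the goblet markers 6.14, 5.94, 8.71 and 5.80. BALB/c Af 168 h showed a like split: Bpifa1 was 7.64 and 7.42 on replicates 1 and 2, and 9.70, 10.39, 9.59 and 10.29 on replicates 3 to 6. Scgb3a1 was 9.15 and 8.15 on those first arrays, against 10.47, 10.57, 10.56 and 10.46 on the others. Their ciliated means were 5.80 and 5.53, against 6.41, 6.26, 6.35 and 6.40, and their alveolar type 2 means were 11.38 and 11.40, against 11.26, 10.99, 11.01 and 10.68. The mean of the skeletal muscle markers was 4.01 to 4.64 in this group and 4.71 to 10.50 on the BALB/c air arrays. Against air, 8 of 8 of these markers were called lower (median -3.15). The BALB/c air arrays are the reference of every BALB/c change against air, and the part of muscle in these results was not tested.

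Other airway lists moved at Af 168 h as well. In the mean of the 3 strains against air, goblet markers were higher in 5 of 8 (median 1.00), led by Clca1, a secreted protein of mucous cells (4.38 ± 0.52, adjusted p = 3.87e-09), Slc26a4 (3.16 ± 0.34) and Fcgbp (1.74 ± 0.36). Of 16 other secretory products 5 were higher and 1 lower, with the immunoglobulin transporter Pigr (1.15 ± 0.26), the trefoil peptide Tff2 (1.04 ± 0.28) and Bpifb1 (0.99 ± 0.31) the largest rises. Of 12 club cell enzymes 3 were lower, Fmo2 (-1.27 ± 0.39), Pon1 (-1.16 ± 0.33) and Cyp4b1 (-1.11 ± 0.32), and 1 was higher. None of the 9 ciliated markers was called (median -0.12). From Af 24 h to Af 168 h, 8 of 9 ciliated markers, 8 of 12 club cell enzymes and 10 of 16 other secretory products were higher, among them Lrrc23 (2.14 ± 0.22), Cyp2f2 (2.34 ± 0.33) and Lypd2, a Ly6-domain gene of the airway (1.95 ± 0.26).

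Ozone alone, 12 hours after exposure, left most of the 6 genes uncalled. In SP-D-/- lungs 1 of 6 was lower than in air (0.0929% of all tested genes), with 4 of 6 at an unadjusted p under 0.05. It was Tspan1, with 7.09, 6.88, 6.37 and 5.79 in ozone, against 7.89, 8.72, 8.73, 9.19 and 8.95 in air. No ozone array reached the air arrays, and the fall was 2.16 ± 0.42 (4.48-fold, adjusted p = 0.0101). The call was lost without ozone replicate 5 (a fall of 1.92, adjusted p = 0.117), with the mean of both probe sets (1.42, adjusted p = 0.0806) and with the beta-actin difference as a covariate (2.07, adjusted p = 0.0594). That difference averaged 2.75 ± 0.39 in ozone (n = 4) and 1.88 ± 0.17 in air (n = 5) in SP-D-/- lungs, and its part in the result was not tested. Gabrp was 6.56, 6.83, 6.08 and 5.64 in ozone, against 7.87, 7.88, 7.43, 7.68 and 7.43 in air (change -1.38 ± 0.41, adjusted p = 0.123). The groups did not overlap, and without ozone replicate 3 the change was called. BALB/c and C57BL/6 lungs had 0 of 6 called and 0 of 6 at an unadjusted p under 0.05, beside 0% of all tested genes called lower in each by limma.

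Scgb3a2 was lower in ozone on every array in every strain, though not called with all 89 arrays fitted. In SP-D-/- lungs it was 10.76, 11.03, 10.92 and 10.68 in ozone, against 12.08, 11.96, 12.10, 12.21 and 12.08 in air. In BALB/c lungs it was 10.39 and 10.56 in ozone, against 11.17, 11.24, 11.29, 11.55 and 11.62 in air. In C57BL/6 lungs it was 10.53, 11.63 and 11.73 (lowest, median, highest) in ozone, against 11.81, 11.96 and 12.18 in air. The ozone and air arrays thus did not overlap in any of the 3 strains, which held for 7 of 15065 genes (0.0465%; 5.88% in SP-D-/-, 6.6% in BALB/c and 0.498% in C57BL/6 lungs taken singly), and this pattern was picked out after its values were seen. In SP-D-/- lungs the ozone arrays also lay below all air arrays for Tspan1 and Gabrp, for Scgb3a1 (highest 10.23 in ozone, lowest 10.79 in air) and, narrowly, for Bpifa1 (10.89 against 10.90). Of these only Tspan1 was called, and Scgb1a1 overlapped. The 5.88% above is the share of all tested genes with such a separation. The changes of Scgb3a2 were -1.24 ± 0.56 in SP-D-/-, -0.90 ± 0.70 in BALB/c and -0.67 ± 0.48 in C57BL/6 lungs, and -0.94 ± 0.34 in the mean of the 3 strains (1.92-fold, unadjusted p = 0.00687, adjusted p = 0.531 in limma). With only the compared groups fitted, the change was called in SP-D-/- lungs (adjusted p = 0.0393) and in the mean (7.96e-05). The SE rests on the within-group SD over all 18 groups, 0.85, while the SD of Scgb3a2 ran from 0.09 to 0.57 in these 6 groups. In the mean of the 3 strains 0 of 6 genes were called for ozone against air (0.0664% of all tested genes lower) and 3 of 6 had an unadjusted p under 0.05. Tspan1 came nearest with -1.08 ± 0.26 (adjusted p = 0.0529), and it was called in 5 of 9 other settings, the fit without the 5 doubted arrays among them. Of the ciliated markers 0 of 9 were called (median -0.48), and of the club cell enzymes 0 of 12 (median -0.21).

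With Af 96 h and ozone against ozone alone, 0 of 6 genes were called in SP-D-/-, BALB/c or C57BL/6 lungs or in their mean, with 0, 2, 0 and 2 of 6 at an unadjusted p under 0.05. In either direction 2.58%, 0.0531%, 36.4% and 13.7% of all tested genes were called in these 4 comparisons, with 19.2% lower in C57BL/6 and 6.05% lower in the mean. In the mean of the 3 strains Scgb3a1 changed by 0.14 (95% interval -0.63 to 0.92), Scgb1a1 by -0.26 (-0.55 to 0.04), Scgb3a2 by -0.63 (-1.29 to 0.04), Bpifa1 by -1.59 (-2.96 to -0.23), Gabrp by -0.54 (-1.04 to -0.05) and Tspan1 by -0.12 (-0.62 to 0.39). Goblet markers were higher in 7 of 8 in the mean of the 3 strains (median 1.85), with Clca1 at 6.51 ± 0.58 (adjusted p = 9.77e-14), Slc26a4 at 3.88 ± 0.38 and Fcgbp at 2.65 ± 0.40. Other secretory products, a list that shares genes with the goblet markers, were higher in 7 of 16 and lower in 1, led by the mucin Muc5ac (1.97 ± 0.36), Agr2 (1.73 ± 0.38) and Tff2 (1.54 ± 0.31). Of the club cell enzymes 4 of 12 were lower, with Fmo2 (-2.20 ± 0.44), Pon1 (-1.83 ± 0.37) and Cyp4b1 (-1.80 ± 0.36) the largest, and 1 was higher. These groups include 2 of the arrays against their labels, and without the doubted arrays 0 of 6 genes were called here too. Ozone against air at Af 168 h gave 0 of 6 called in each strain and in their mean, with 0 in SP-D-/-, 0 in BALB/c, 3 in C57BL/6 and 1 in the mean at an unadjusted p under 0.05. Called genes in either direction were 0.604%, 0.0199%, 0.0597% and 2.79% of all tested genes, with 1.68% lower in the mean. In C57BL/6 lungs Tspan1 was 6.79, 8.17 and 8.76 (lowest, median, highest) at Af 168 h with ozone, against 7.30, 6.19, 7.04 and 5.86 with air, a change of 1.41 ± 0.41 (adjusted p = 0.159).

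Most of the strain calls stood at Af 96 h with ozone, where 5 of 6 genes were lower in BALB/c than in C57BL/6 lungs, against 2.49% of all tested genes. Gabrp was 4.29, 5.45 and 5.67 (lowest, median, highest) in BALB/c, against 6.91, 6.99, 7.88, 7.29 and 8.27 in C57BL/6. No BALB/c array came near the C57BL/6 arrays, and the difference was -2.24 ± 0.37 (4.71-fold, adjusted p = 7.55e-05). Scgb3a1 was 10.21, 9.81, 7.38, 10.07, 7.47 and 7.60 in BALB/c, against 10.28, 10.87, 10.79, 11.46 and 11.93 in C57BL/6. The BALB/c arrays fell into 3 just below the C57BL/6 range and 3 far below it, and the difference was -2.31 ± 0.59 (4.96-fold, adjusted p = 0.0107). Tspan1 differed by -1.39 ± 0.38 (adjusted p = 0.0185), a call lost without C57BL/6 replicate 4 or 6 (adjusted p at most 0.0660). The second probe set of Gabrp differed by -1.28 ± 0.31 (adjusted p = 0.00625). That of Tspan1 differed by -0.57 ± 0.38 and was not called (adjusted p = 0.344). Bpifa1 was 8.88, 9.18, 4.92, 10.40, 6.92 and 3.37 in BALB/c, against 9.27, 9.38, 9.75, 11.99 and 11.82 in C57BL/6. Its difference of -3.16 ± 1.03 (8.97-fold, adjusted p = 0.0492) and that of Scgb3a2, -1.54 ± 0.50 (2.92-fold, adjusted p = 0.0488), sat at the threshold, were lost without a filter on low levels, with the spike level as a covariate and with only these 2 groups fitted (adjusted p up to 0.103), and were lost in 7 and 8 of 11 fits that left out an array (adjusted p up to 0.161 and 0.150): those without BALB/c replicate 3, 5 or 6 or C57BL/6 replicate 2, 3, 4 or 6 for both, and without BALB/c replicate 2 for Scgb3a2. C57BL/6 replicate 1 is one of the doubted arrays. Without the doubted arrays all 5 stayed called, Gabrp at -2.38 (adjusted p = 2.49e-06), Scgb3a1 at -2.51 (0.00351), Tspan1 at -1.45 (0.00754), Scgb3a2 at -1.85 (0.00455) and Bpifa1 at -3.46 (0.0242). Scgb1a1 differed by -0.20 ± 0.22 (adjusted p = 0.564).

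Beside these, 9 of 16 other secretory products were lower in BALB/c than in C57BL/6 lungs at Af 96 h with ozone (median -1.65), led by Reg3g (-3.26 ± 0.86), Agr2 (-3.10 ± 0.57) and Chad (-2.52 ± 0.47). Ciliated markers were lower in 6 of 9 (median -1.45) and goblet markers in 5 of 8 (median -1.96), while endothelial markers were higher in 3 of 6 (median 1.29) and alveolar type 1 markers in 3 of 5 (median 0.93). Club cell enzymes were lower in 1 of 12, Gsto1 (-1.98 ± 0.35). The part of these cell markers in the difference was not tested.

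Elsewhere few strain differences were called. BALB/c against C57BL/6 gave 0 called under each of the other 5 exposures, with 4 unadjusted p under 0.05 among them, beside 0.272% of all tested genes called lower in air, 0.073% in ozone, 0.232% at Af 24 h, 0.352% in air after Af 168 h and 0.0664% in ozone after Af 168 h. In air Tspan1 was 7.84, 7.24, 7.73, 7.38 and 6.81 in BALB/c, against 8.22, 8.43 and 8.66 (lowest, median, highest) in C57BL/6. These groups did not overlap, and the difference of -1.01 ± 0.38 had an adjusted p of 0.633 with all arrays and was called when only these 2 groups were fitted. Scgb3a2 did not overlap in air either (highest 11.62 in BALB/c, lowest 11.81 in C57BL/6). Its difference of -0.61 was not called with all arrays but was called in limma with only these 2 groups (adjusted p = 0.0162). SP-D-/- against C57BL/6 gave 1 gene in ozone (0.458% of all tested genes lower), 1 at Af 96 h with ozone (5.95%) and 0 under the other 4 exposures, with 2 unadjusted p under 0.05 among those. In these 4, 0.00664% (air), 0.00664% (Af 24 h), 0.0133% (air after Af 168 h) and 0.305% (ozone after Af 168 h) of all tested genes were called lower. In ozone Tspan1 was 7.09, 6.88, 6.37 and 5.79 in SP-D-/- lungs, against 7.54, 8.02 and 8.86 in C57BL/6. The ranges did not overlap, but the difference of -1.57 ± 0.41 (adjusted p = 0.0396) was lost in 7 of 10 fits that left out an array (adjusted p up to 0.311), those without SP-D-/- replicates 2, 4 or 5 or C57BL/6 replicates 1 to 4. Cyclic loess, the mean of both probe sets and the beta-actin covariate ended it too (adjusted p up to 0.452). At Af 96 h with ozone Gabrp was 5.49, 6.17 and 7.17 in SP-D-/- lungs, against 6.91, 6.99, 7.88, 7.29 and 8.27 in C57BL/6. The difference was -1.31 ± 0.37 (2.48-fold, adjusted p = 0.0164), and without the doubted arrays -1.31 (adjusted p = 0.0111). It was not called with the spike level as a covariate (-1.08, adjusted p = 0.149) or with both changes together (-1.09, adjusted p = 0.0839). The second Gabrp probe set differed by -0.69 ± 0.31 and was not called (adjusted p = 0.0996).

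Whether the strains responded differently was tested directly in 8 comparisons, SP-D-/- or BALB/c against C57BL/6 for ozone, Af 24 h and Af 168 h against air and Af 168 h against Af 24 h. Of the 48 tests of the 6 genes 0 were called and 9 had an unadjusted p under 0.05, and over all tested genes at most 0.0133% were called lower and 0% higher. The ozone response of Tspan1 was more negative in SP-D-/- than in C57BL/6 lungs by 1.86 (95% interval of the difference -2.97 to -0.75, adjusted p = 0.53). The Af 24 h responses of the 6 genes thus stand as values side by side, and these tests do not show that they were alike.

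Within groups, arrays that were low in one of these genes tended to be low in the others. Over 89 arrays with the group means taken out, Scgb3a1 went with Bpifa1 (r = 0.91), Scgb3a2 (0.75) and Tspan1 (0.60), and Scgb1a1 with Scgb3a2 (0.68). The weakest pair was Scgb1a1 and Gabrp (0.25). Without the 5 doubted arrays the first value was 0.92, and with the spike level taken out 0.91. These are descriptions over arrays that share their hybridization and RNA, and carry no p.

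**Figure D4:**
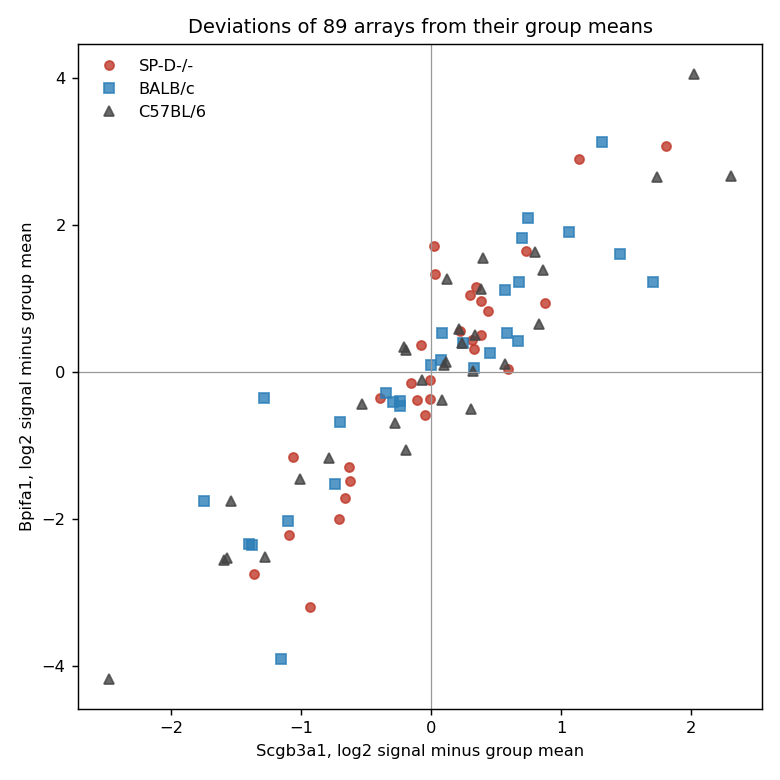
Deviation of Bpifa1 (vertical axis) against that of Scgb3a1 (horizontal axis) from their group means, in log2 units, for 89 arrays by strain. Both deviations go up together (r = 0.91), and arrays of all 3 strains lie at both ends.

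The same deviations were set against gene lists as a check of the club cell label. Each value is a correlation with the mean of a list, the gene itself left out. The 5 club markers include Scgb1a1 and Scgb3a2, so for the other genes this list shares members with those described, while the club cell enzymes hold none of the 6. Scgb1a1 and Scgb3a2 went most with the club markers (r = 0.65 and 0.77). With the club cell enzymes Scgb1a1 gave 0.62, with the alveolar type 2 markers 0.55 and with the ciliated markers 0.41. Scgb3a2 gave 0.65 with the enzymes and 0.67 with the ciliated markers. Scgb3a1 gave 0.68 with the club markers, 0.48 with the enzymes, 0.72 with the ciliated and 0.74 with the goblet markers. Bpifa1 gave 0.61, 0.51, 0.65 and 0.65 with the same 4 lists, and both went most with the other secretory products (0.82 for Scgb3a1 and 0.78 for Bpifa1). Tspan1 gave 0.57 with the club markers, 0.41 with the enzymes and 0.62 with the ciliated markers, and Gabrp 0.45, 0.26 and 0.50 with those lists. The general epithelial markers gave 0.01 to 0.43 and the fibroblast markers -0.39 to -0.19. By these values the club cell lists came first for Scgb1a1, and for Scgb3a2 only on the list that holds Scgb1a1, while the other 4 genes had a higher value with ciliated markers or other secretory products than with either club cell list. These list values take in all 89 arrays and were not taken without the 5 doubted ones. One of those, BALB/c Af 24 h replicate 5, had Scgb1a1 at 9.82 against a group mean of 11.81. Its means were also low for the club cell enzymes (5.26) and alveolar type 2 markers (8.15). How far the order of lists for Scgb1a1 rests on that array was not tested.

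Over the 18 group means, the genes whose pattern was most like that of a member included club cell and ciliary genes. For Scgb1a1 they were Cyp2f2 (r = 0.95), Lratd2 (0.94) and Cckar (0.94), and for Scgb3a2 Fam183b, Tmem212 and Cd24a (0.93 to 0.94). For Scgb3a1 they were the ciliary axoneme gene Spag6l (0.96), the airway chemokine Cxcl17 (0.95) and Rsph4a, a gene of the ciliary radial spoke (0.93). Spag6l was also among the 3 nearest of Gabrp (0.91) and Tspan1 (0.90). Gabrp was further matched by Eppk1 and the water channel Aqp4 (0.91 each), Tspan1 by Stk33 (0.91) and Cfap299 (0.89), and Bpifa1 by Eppk1 (0.89), Esyt3 (0.86) and Isg20 (0.86).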

How the data were processed

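RNA from 89 mouse lung samples was amplified and read on Affymetrix 96-array plates, per the labels. The authors deposited log2 signals per probe set; the software and normalization are not given in the sources used here. Every deposited array has the same median (4.90), quartiles and maximum. Of 45141 probe sets, 28898 carry 1 gene symbol, 551 several and 15692 none, and 104 are controls. Each gene was read by its probe set with the highest mean, giving 17097 genes, of which 15065 exceeded log2 4.45 (percentile 40 of all values) on at least 4 arrays. Depth does not apply to arrays, and their number limits the precision.

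Group means over all 89 arrays were fitted with limma 3.58.1 in R 4.3.3, and p-values were adjusted by Benjamini-Hochberg over all 15065 genes, with calls at 0.05. There were 18 exposure, 12 strain and 8 response-difference comparisons, and 6 means of the 3 strains added after seeing the data, as was the second probe set of Gabrp and Tspan1. Alternatives were cyclic loess, the mean of a gene's probe sets, no filter, leaving out the 5 doubted arrays, spike level or beta-actin difference as a covariate, the compared groups alone, a replicate block and leaving out each array. Plots used matplotlib 3.10.9 under Python 3.11.15.

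Named genes were the 6 members, the 3 genes most like each over the 18 group means, up to 3 called genes with the largest change per list of airway genes, and Sftpd. Members and lists were chosen with earlier results of these data known. The lists lack, among others, Scgb1c1, Sftpb, Cyp2s1, Gsta3, Por, Lamp3 and Rtkn2, for which no probe set with 1 symbol was found, and Cldn4 and Dnah5, which were filtered. Replicate numbers were checked for pairing: all pairs correlated above 0.1 only for Af 168 h with ozone against air in C57BL/6 (4 pairs, mean 0.34) and for BALB/c against C57BL/6 at Af 168 h with air (4 pairs, mean 0.26). Tested on simulated data of 15065 genes, the fit recovered 38% of 100 falls of 1 on the log2 scale and 91% of 100 falls of 2 for Af 24 h against air in SP-D-/- lungs, 84% and 99% for the mean of the 3 strains, 29% and 84% for the same contrast in C57BL/6 lungs, and 29% and 78% for ozone against air in SP-D-/- lungs. The simulated noise was independent, with the same SD for a gene in every group and few genes changed. In the data the SD of Scgb3a2 was 0.09 in SP-D-/- air and 0.97 at SP-D-/- Af 24 h, so these rates need not hold for the 6 genes.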

Additional observations from a re-analysis of the deposited data

Results flagged for a closer look

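Within groups of 4 to 6 arrays, 8 of 102 sets of values held 1 array far from the rest, where chance gives about 1 in 20 (5.1). Scgb3a1 was 9.40 on C57BL/6 Af 168 h with ozone replicate 5, with the others between 11.11 and 11.56. On the same array Scgb3a2 was 9.17, with the others between 11.39 and 12.04, and this array has a strain index of 0.02. Gabrp was 7.11 on BALB/c Af 24 h replicate 4, an array against its label, with the others at 4.99 or below. Gabrp was 8.04 on SP-D-/- Af 168 h with air replicate 6, with the others between 6.44 and 6.67. Tspan1 was 7.62 on SP-D-/- Af 24 h replicate 1, with the others between 5.81 and 6.38. The mean of the skeletal muscle markers was 8.85 on that array and 4.15 to 4.43 on the others, and their part was not tested. Bpifa1 was 9.89 on C57BL/6 ozone replicate 5, with the others between 11.23 and 11.99. Scgb1a1 was 13.09 on SP-D-/- ozone replicate 3 and 12.96 on each of the other arrays, and 13.39 on BALB/c Af 168 h with air replicate 1, with the others between 12.96 and 13.09.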

How the results depend on the processing

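No change of direction of a called value was seen. The number of the 6 genes called moved by over 1.5 times as follows. Cyclic loess gave 0 for SP-D-/- against C57BL/6 in ozone. The mean of a gene's probe sets gave 0 for ozone in SP-D-/-, for Af 168 h against air in C57BL/6 and for SP-D-/- against C57BL/6 in ozone, and 1 for Af 168 h against Af 24 h in C57BL/6. No filter gave 3 for BALB/c against C57BL/6 at Af 96 h with ozone. Without the 5 doubted arrays there were 2 for Af 168 h against air and 1 for Af 168 h against Af 24 h in C57BL/6, and 1 for ozone in the mean of the 3 strains. The spike level as a covariate gave 0 and 3 for SP-D-/- and BALB/c against C57BL/6 at Af 96 h with ozone, and 1 for ozone in the mean. Both together gave 2 for Af 168 h against air in C57BL/6, 2 and 0 for SP-D-/- against C57BL/6 in ozone and at Af 96 h with ozone, 1 for ozone in the mean and 1 for Af 168 h ozone minus air in the mean. The beta-actin difference gave 0 for ozone in SP-D-/-, Af 168 h against air in C57BL/6 and in the mean, and SP-D-/- against C57BL/6 in ozone. The compared groups alone gave 2 for ozone in SP-D-/-, 0 for Af 168 h against Af 24 h in BALB/c, 2 for SP-D-/- against C57BL/6 in ozone, 2 and 3 for BALB/c against C57BL/6 in air and at Af 96 h with ozone, and 3 for ozone in the mean. The replicate block gave 0 for ozone in SP-D-/-, Af 24 h in BALB/c and in C57BL/6, Af 168 h against air in C57BL/6, Af 168 h against Af 24 h in BALB/c, SP-D-/- against C57BL/6 in ozone and BALB/c against C57BL/6 at Af 96 h with ozone. It gave 2 for Af 168 h against Af 24 h in SP-D-/-, 1 and 2 for BALB/c against C57BL/6 in air and ozone, 2 for the difference of SP-D-/- and C57BL/6 ozone responses and 4 for ozone in the mean. In the 2 comparisons where all pairs of the same number correlated above 0.1, the replicate block left 0 called. This does not show that the numbers pair, as arrays correlated best with their own number in only 2 and 1 of the 4 pairs. Leaving out 1 array gave 0 to 2 for ozone in SP-D-/-, 4 to 5, 4 to 6 and 3 to 4 for Af 24 h in SP-D-/-, BALB/c and C57BL/6, 0 to 2 for Af 168 h against air in C57BL/6, 3 to 4 and 2 to 4 for Af 168 h against Af 24 h in SP-D-/- and BALB/c, 0 to 2 for SP-D-/- against C57BL/6 in ozone, 0 to 2 and 2 to 5 for BALB/c against C57BL/6 at Af 24 h and at Af 96 h with ozone. In the mean it gave 0 to 1 for ozone, 2 to 3 for Af 168 h against air and 0 to 1 for ozone at Af 168 h. Smaller moves were 6 to 4 for Af 24 h in BALB/c with cyclic loess, the beta-actin difference or the compared groups alone, and 6 to 5 with the mean of probe sets or without the doubted arrays; 5 to 4 in SP-D-/- with the beta-actin difference or the compared groups alone, and 5 to 6 without the doubted arrays; and 4 to 5 in C57BL/6 with cyclic loess or without the doubted arrays, and 4 to 3 with the compared groups alone. For Af 168 h against Af 24 h, BALB/c gave 4 with the mean of probe sets and 2 without the doubted arrays, and SP-D-/- 3 with the compared groups alone. For Af 168 h against air in the mean, the mean of probe sets gave 2 and the compared groups alone or the replicate block 4. The cause of these moves was not tested. BALB/c ozone rests on 2 arrays, Scgb1a1 lies at the top of the scale, and Gabrp at Af 24 h lies near the filter level.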
